A study of Mus musculus with 8 samples.

Results

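Transcript levels of 10 genes that serve autophagosome formation and mitochondrial clearance were measured in quadriceps femoris (QF) muscle of mice labelled as Grpel1 knockout and of controls. The 10 genes are Map1lc3a, Map1lc3b, Gabarap, Gabarapl1, Sqstm1, Nbr1, Bnip3, Bnip3l, Ulk1 and Pink1. They were picked by symbol, with earlier results of these data known, and all 10 were found among the 14012 genes of the deposited count table. Polyadenylated RNA was sequenced from QF of 4 mice labelled knockout and 4 labelled control, with 1 library per mouse. The knockout group was Grpel1 skm-/-, in which floxed Grpel1, the gene of a nucleotide exchange factor of the mitochondrial import motor, was to be deleted by a tamoxifen-inducible Cre under the human skeletal α-actin promoter (HSA-Cre). This promoter drives Cre in muscle fibres and leaves Grpel1 intact in the other cells of the tissue. The control group was labelled flox/flox, and the sources used here do not state whether these 4 mice carried Cre or received tamoxifen. The mice were male. In the knockout group tamoxifen was given over consecutive days at a few weeks of age, and the muscle was taken within weeks of this induction. A flox/flox mouse with both would itself be a knockout, so Cre, tamoxifen or both differed between the labels. Effects of such a difference cannot be told apart from that of the Grpel1 deletion. The comparison asked how transcripts of the autophagy and mitophagy machinery differed between muscle labelled as lacking this import factor and control muscle.

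The libraries held 16017565 to 18813042 counts in the control group and 16424608 to 20361144 in the knockout group. TMM scaling factors, which set library sizes so that most genes do not differ, were 0.75 to 0.84 in control and 1.19 to 1.33 in knockout libraries. Counts of Grpel1 did not check the labels, since its level was 68.4 ± 3.04 CPM (the gene's share of a library's counts, scaled to a fixed total; SD, n = 4) in control and 65.3 ± 6.11 in knockout, with an adjusted p of 0.49 by the edgeR fit described below. All 8 skeletal muscle markers were present in every library. Their summed level was 198931 to 257403 CPM in control and 66163 to 94798 CPM in knockout libraries. CPM here uses library sizes set by TMM, so the factors above enter these sums, which were not examined with library totals alone. The genes called different numbered 6265, or 44.7% of all genes, with 23.6% higher and 21.1% lower in knockout. In bulk muscle, fewer cells of a type and less RNA per cell cannot be told apart. Scaling by library totals alone, in place of TMM, moved the median of the log2 fold changes over all genes from 0.065 to 0.73, and directions of named genes that turned with it are given beside their values.

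Autophagy encloses cytoplasm in a double membrane that closes to an autophagosome and fuses with a lysosome. The ULK1 kinase starts the process, and proteins of the Atg8 family (LC3 and GABARAP), once joined to a lipid, sit on the growing membrane and bind cargo receptors such as p62, the product of Sqstm1. Damaged mitochondria are taken up in the same way, either through receptors in their outer membrane such as BNIP3 and NIX, the product of Bnip3l, or through PINK1, a kinase that accumulates on mitochondria with failing protein import and marks them for uptake. In skeletal muscle this pathway is known for its part in fibre turnover and in wasting.

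Coding sequence for the end of Atg8 proteins that is joined to lipid, and for the part of receptors that binds Atg8 proteins, is shown first. The results below are transcript levels and do not depend on these stretches. The first set is the end of the coding sequence of the 4 Atg8-family genes, from GENCODE vM21 on GRCm38, with the codon of the last glycine in capitals. Atg4 proteases cut after this glycine, and the lipid is then joined to it. The stretches lie in the last coding exons at chr2:155277590-155277637 (plus strand), chr8:121596723-121596770 (plus), chr11:69994477-69994524 (plus) and chr6:129541120-129541167 (plus), in the order printed.
Map1lc3a: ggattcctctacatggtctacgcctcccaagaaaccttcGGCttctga
Map1lc3b: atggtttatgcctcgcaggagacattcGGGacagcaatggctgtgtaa
Gabarap: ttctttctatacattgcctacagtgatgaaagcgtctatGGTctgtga
Gabarapl1: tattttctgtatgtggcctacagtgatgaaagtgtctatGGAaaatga

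The second set is the stretch of 2 receptors that holds the 4 codons of the LC3-interacting core (tryptophan, any residue, any residue, leucine) in capitals, by which each receptor binds Atg8-family proteins. That of Sqstm1 lies at chr11:50202526-50202567 (minus strand). That of Bnip3 spans an intron, within chr7:138898797-138909372 (minus).
Sqstm1: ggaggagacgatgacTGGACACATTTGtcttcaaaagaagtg
Bnip3: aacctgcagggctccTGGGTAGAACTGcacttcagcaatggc

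Promoter windows from RefSeq (GRCm38.p6), running from 250 bases before to 50 after a start site, were present for 8 of the 10 genes. Map1lc3a and Bnip3l had no entry. Both strands were searched for CACGTG (an E-box and the core of the site bound by TFEB), TGATGCAA (a composite ATF4 and C/EBP site), TGACNNNGC (the core of the antioxidant response element) and GTAAACA (a FoxO site), which were found in 7.15%, 0.895%, 12.4% and 3.65% of all 32851 windows. Among the 10 genes, Bnip3 held CACGTG at bases -108 to -103 and Map1lc3b held TGACNNNGC at bases 5 to 13 after its start. The windows of Gabarap, Gabarapl1, Sqstm1, Nbr1, Ulk1 and Pink1 held none of the 4, which says only that these letters are not in these windows. The upstream parts outside annotated exons are printed for the genes that were lower in knockout or, for Bnip3, lower in some knockout libraries, at chr5:110810098-110810331, chr4:138326308-138326546 and chr7:138909520-138909756 (all minus strand), with the one match in capitals.
Ulk1: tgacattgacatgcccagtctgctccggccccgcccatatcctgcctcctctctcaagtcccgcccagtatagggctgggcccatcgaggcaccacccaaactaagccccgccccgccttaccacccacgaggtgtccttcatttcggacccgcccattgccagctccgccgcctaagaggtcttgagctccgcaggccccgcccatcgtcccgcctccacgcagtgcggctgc
Pink1: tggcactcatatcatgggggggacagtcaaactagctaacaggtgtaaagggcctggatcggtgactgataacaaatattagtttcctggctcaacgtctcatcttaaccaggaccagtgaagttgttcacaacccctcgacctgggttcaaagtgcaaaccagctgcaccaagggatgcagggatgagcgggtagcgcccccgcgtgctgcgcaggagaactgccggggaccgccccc
Bnip3: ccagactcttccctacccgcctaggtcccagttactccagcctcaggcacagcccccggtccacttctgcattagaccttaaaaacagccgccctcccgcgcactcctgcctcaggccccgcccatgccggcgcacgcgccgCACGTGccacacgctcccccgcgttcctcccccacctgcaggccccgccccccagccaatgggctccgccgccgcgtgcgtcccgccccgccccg

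Of the 10 genes, 3 were higher in knockout muscle (Map1lc3a, Gabarap and Sqstm1), 2 were lower (Ulk1 and Pink1) and 5 did not pass the threshold, an adjusted p under 0.01 over all genes in edgeR's quasi-likelihood test (Benjamini-Hochberg). That is a share near the background of 44.7% of all genes. In 6 of the 10 the knockout and control libraries did not overlap, against 53.4% of all genes. In 3 of these the knockout libraries lay above, against 29% of all genes, and in 3 below, against 24.4%. Changes went in both directions. The log2 fold changes (knockout over control) ran from -1.37 to 1.03 with a median of -0.068, beside 0.065 over all genes. The lower genes encode the kinases ULK1 and PINK1, and the higher genes encode Atg8-family proteins and a cargo receptor.

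**Figure D1:**
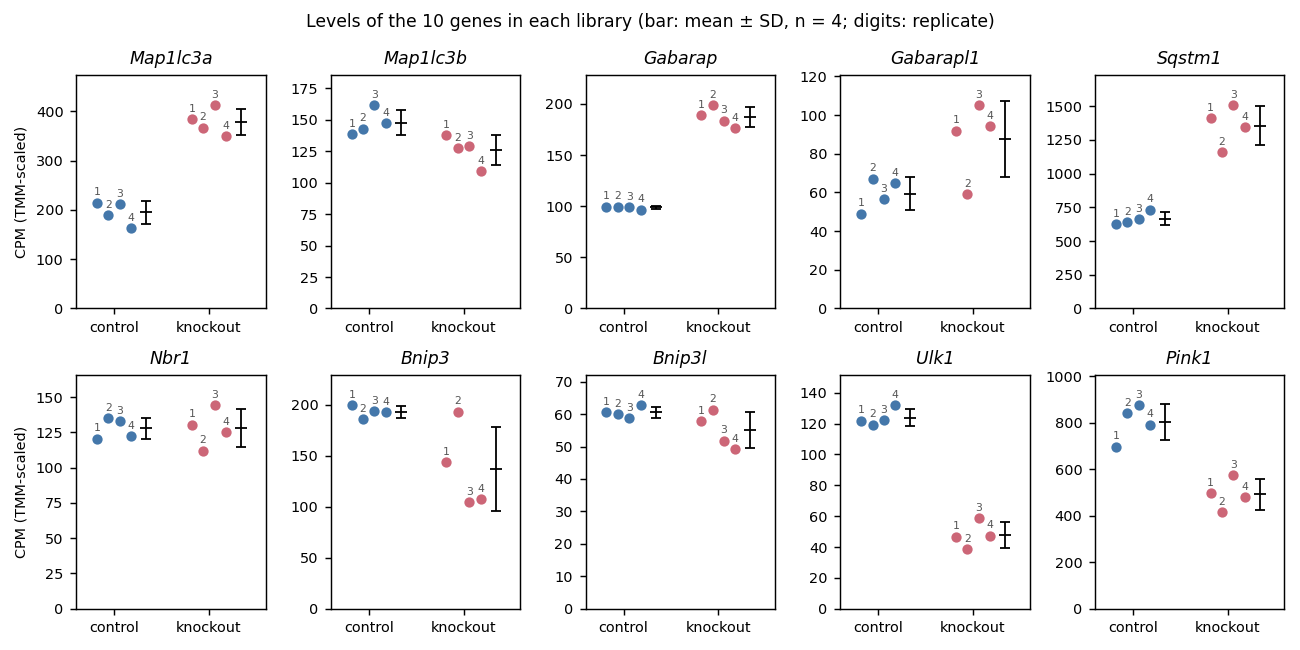
TMM-scaled CPM of each of the 10 genes (vertical axes from 0) in the 4 control (blue) and 4 knockout (red) libraries, with the replicate number above each point and the mean ± SD (n = 4) as a bar to the right. The groups are apart for Map1lc3a, Map1lc3b, Gabarap, Sqstm1, Ulk1 and Pink1, and knockout replicate 2 lies with the controls for Gabarapl1, Bnip3 and Bnip3l.

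Ulk1 (chr5:110784489-110810081, minus strand), the kinase that starts autophagosome formation, was lower in knockout muscle. Its TMM-scaled level was 122, 119, 122 and 132 CPM in control replicates 1 to 4, and 46.7, 38.5, 59.0 and 47.4 CPM in knockout replicates 1 to 4. All 4 knockout libraries lay below every control library. The log2 fold change was -1.37 (SE 0.12, 95% interval -1.63 to -1.11) with an adjusted p of 6.0e-06 by edgeR. It was the largest fall among the 10 genes, and it kept its direction with library totals alone (-0.71). Its paralogue Ulk2 was lower to a similar extent, with 188, 180.2, 218.5 and 194 CPM in control and 73.4, 70.8, 84.2 and 69.8 CPM in knockout libraries, a log2 fold change of -1.39 (SE 0.09, adjusted p 1.0e-06 by edgeR).

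In the list of the ULK1 kinase complex, 4 of 5 genes were lower and none was higher, where 21.1% of all genes were lower. The other 2 were Rb1cc1, which encodes the scaffold FIP200, at -0.51, and Atg101, a subunit that binds ATG13, at -0.47 (SE 0.09, adjusted p 0.0011 by edgeR). With library totals alone, these latter values turned to 0.16 and 0.20, whereas Ulk2 stayed at -0.72. The fifth gene was at 0.24 and did not pass.

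The Atg8 family coats the autophagosome membrane. With TMM scaling 2 of its 5 genes were higher, 3 were not called and none was lower. Of all genes, 23.6% were higher and 21.1% lower. With library totals alone all 5 were called higher, as were 8498 of all 14012 genes. Map1lc3a (chr2:155276364-155278073, plus), which encodes LC3A, stood at 215, 189.8, 212 and 163 CPM in control replicates 1 to 4 and at 384, 367, 413 and 349.8 CPM in knockout replicates 1 to 4. The groups were well apart. This was a log2 fold change of 0.96 (SE 0.10, 95% interval 0.73 to 1.18, adjusted p 2.4e-05 by edgeR).

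Map1lc3b (chr8:121590468-121598047, plus), which encodes LC3B, the form most often followed as a marker of autophagosomes, stood at 138.5, 142.9, 161.7 and 147.4 CPM in control and at 137.5, 127.5, 128.9 and 109.2 CPM in knockout libraries. The highest knockout library lay just below the lowest control library, so the groups were apart by a narrow margin. Its log2 fold change of -0.23 (SE 0.09, 95% interval -0.42 to -0.04) did not pass (adjusted p 0.038 by edgeR) and turned to 0.44 with library totals alone. DESeq2 gave -0.28 with an adjusted p of 0.0073. Of the 75-base stretches in its annotated transcripts, 4.09% also occur in transcripts of other genes, and the effect on its counts was not tested.

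Gabarap (chr11:69991370-69994949, plus), an Atg8 protein that also activates the ULK1 complex, was higher in knockout. Its level was 99.5, 99.6, 99.3 and 96.6 CPM in control and 189.2, 199, 184 and 176 CPM in knockout libraries, without overlap. With a log2 fold change of 0.92, it passed (SE 0.06, 95% interval 0.78 to 1.06, adjusted p 1.5e-06 by edgeR). Both groups were tight, with a coefficient of variation of 1.47% in control and 5.11% in knockout libraries.

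Gabarapl1 (chr6:129533192-129542331, plus), the nearest paralogue of Gabarap with 74.9% identity of their aligned coding sequences, varied more. Its level was 49.0, 67.2, 56.6 and 65.0 CPM in control and 91.9, 59.3, 105.2 and 94.3 CPM in knockout libraries. Knockout replicate 2 lay within the control range and the other knockout libraries above it. Of its 75-base stretches in the annotated transcripts, 20.5% also occur in 1700101I11Rik, which overlaps it on the opposite strand. The log2 fold change was 0.56 (SE 0.17, 95% interval 0.19 to 0.93) with an adjusted p of 0.015 by edgeR. Without knockout replicate 2 it was 0.69 with an adjusted p of 0.0013, and DESeq2 with all libraries gave 0.52 with an adjusted p of 0.0086. The remaining gene of the family, Gabarapl2, was at -0.31 (SE 0.08, adjusted p 0.011 by edgeR), which did not pass, and turned to 0.36 with an adjusted p of 0.0021 with library totals alone.

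Per exon length, the 5 Atg8-family genes together reached 436 ± 23.4 RPKM (CPM divided by the exon length in kilobases, TMM-scaled; SD, n = 4) in control and 685 ± 39.0 RPKM in knockout muscle. The control libraries ranged from 407 to 464 RPKM and the knockout libraries from 639.9 to 729 RPKM, without overlap. Within this sum, Map1lc3a took 42.7 ± 3.52% in control and 52.8 ± 0.926% in knockout libraries, and Gabarap took 20.2 ± 0.872% and 24.4 ± 1.68%. Map1lc3b took 19.8 ± 1.2% in control and 10.7 ± 0.683% in knockout libraries. Gabarapl2 took 9.48 ± 0.892% and 4.88 ± 0.063%, and Gabarapl1 7.74 ± 1.35% and 7.21 ± 1.52%. Shares within a library do not depend on its scaling. They are tied together, so the share of an unchanged gene falls when others of the sum rise. The control and knockout ranges of the shares of Map1lc3a, Map1lc3b, Gabarap and Gabarapl2 did not overlap, and those of Gabarapl1 did.

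**Figure D2:**
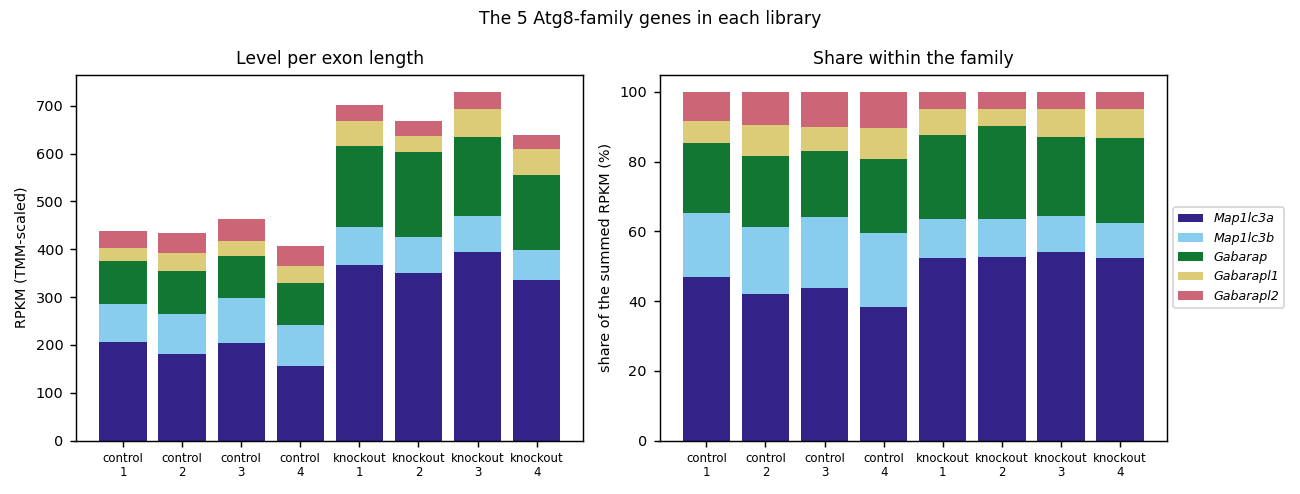
The 5 Atg8-family genes in each library as stacked TMM-scaled RPKM (left, from 0) and as percent of the family sum (right, from 0 to 100%). The summed bars are higher in the 4 knockout libraries (639.9 to 729 RPKM) than in the 4 control libraries (407 to 464 RPKM). As a share of this higher sum, the Map1lc3b band narrows from 19.8% to 10.7% on average.

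The ratio of LC3B to LC3A transcripts, which also does not depend on scaling, was compared directly. On the log2 scale of CPM it was -0.63, -0.41, -0.39 and -0.15 in control and -1.48, -1.52, -1.68 and -1.68 in knockout libraries. The knockout ratio was 2.29-fold lower, a difference of -1.19 with no overlap. A two-sided exact permutation test gave p = 0.0286, the smallest that 4 against 4 libraries allow, and 0.0571 after adjustment over the 4 ratios compared. For Gabarapl1 over Gabarap the difference was -0.38, the groups overlapped, and the exact permutation p was 0.143 (adjusted 0.143).

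Among the cargo receptors, Sqstm1 rose and Nbr1 did not pass the test. Sqstm1 (chr11:50200152-50210820, minus) encodes p62, which carries ubiquitinated cargo to the autophagosome and is degraded with it. Its level was 625, 641, 661 and 733 CPM in control and 1413, 1158, 1508 and 1347 CPM in knockout libraries. The groups were far apart, and knockout replicate 2 was the lowest of the knockout libraries. Sqstm1 thus had a log2 fold change of 1.03 (SE 0.10, 95% interval 0.80 to 1.26, adjusted p 1.7e-05 by edgeR). For Sqstm1, 14.6% of the 75-base stretches also occur in transcripts of Mrnip, and the effect on its counts was not tested.

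Nbr1 (chr11:101552107-101581951, plus), a receptor with domains like those of p62 that acts beside it, stood at 120.6, 135, 133 and 123 CPM in control and at 131, 112, 144 and 125 CPM in knockout libraries. The control libraries lay within the range of the knockout libraries. Its log2 fold change was 0.0015 (SE 0.09, 95% interval -0.19 to 0.19, adjusted p 0.99 by edgeR), and 0.67 with library totals alone, where the median of all genes was 0.73. Within a library, the log2 ratio of Sqstm1 to Nbr1 was 2.38 ± 0.14 in control and 3.40 ± 0.033 in knockout (SD, n = 4), or 2.04-fold higher. The groups did not overlap, with an exact permutation p of 0.0286 (adjusted 0.0571 over 4 ratios).

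Of the 12 listed cargo receptors, 4 were higher and 1 was lower in knockout, beside 23.6% and 21.1% of all genes, with a median log2 fold change of 0.045 beside 0.065 over all genes. Tex264, a receptor for fragments of the endoplasmic reticulum, had the largest change of the pathway, from 22.9, 24.1, 24.8 and 26.8 CPM in control to 148, 126, 143 and 141 CPM in knockout libraries. Its log2 fold change was 2.5 (SE 0.08, adjusted p 3.8e-08 by edgeR). Stbd1, a glycogen-binding receptor, was higher by 2.10 on the log2 scale (adjusted p 6.8e-06 by edgeR), and Retreg1, another receptor for the endoplasmic reticulum, by 0.89 (adjusted p 0.0053 by edgeR). Ccpg1, also a receptor of the endoplasmic reticulum, was lower by TMM scaling at -0.47 (SE 0.09, adjusted p 0.0015 by edgeR) and turned to 0.20 with library totals alone.

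**Figure D3:**
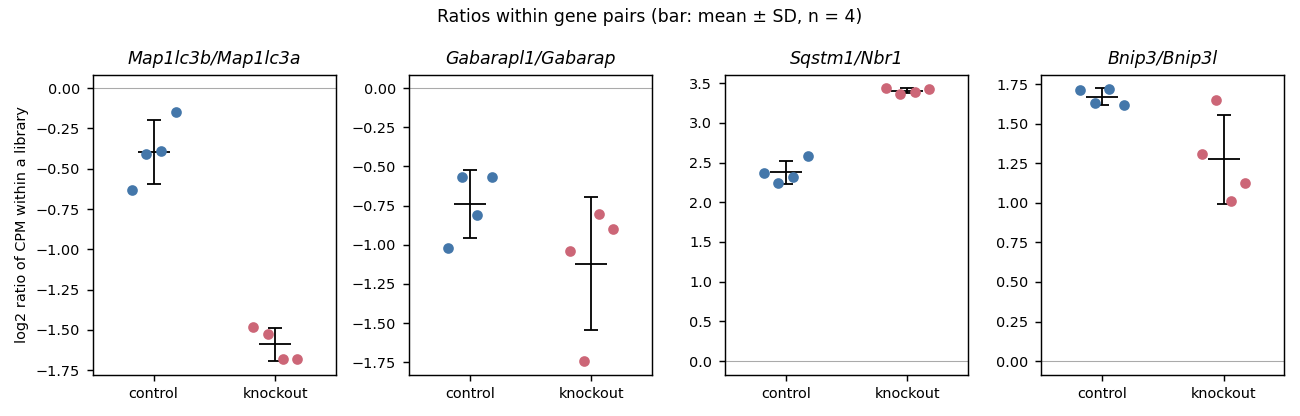
Log2 ratio of CPM within each library for 4 pairs of related genes in control (blue) and knockout (red) libraries, with mean ± SD (n = 4) as bars. Map1lc3b over Map1lc3a lies at -0.40 on average in control and -1.59 in knockout libraries, and Sqstm1 over Nbr1 is higher at 3.40 than at 2.38 in control, both without overlap, while the other pairs overlap.

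The mitophagy receptors Bnip3 and Bnip3l were not called. Bnip3 (chr7:138890836-138909506, minus), a receptor of the outer mitochondrial membrane, stood at 199, 186, 194 and 193 CPM in control and at 144, 193, 104.6 and 108 CPM in knockout libraries. Knockout replicate 2 lay within the control range, and the other knockout libraries were below it. The coefficient of variation was 2.94% in control and 30.1% in knockout, the widest among the 10 genes in either group. Its log2 fold change was -0.49 (SE 0.17, 95% interval -0.88 to -0.10, adjusted p 0.033 by edgeR), and it turned to 0.19 with library totals alone. Without knockout replicate 2 it was -0.72 with an adjusted p of 0.00045. Of its 75-base stretches, 34.4% also occur in transcripts of other annotated genes, and the effect on its counts was not tested.

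Bnip3l (chr14:66985240-67008877, minus) encodes NIX, the paralogue of BNIP3. It stood at 60.7, 59.9, 58.8 and 62.7 CPM in control and at 57.8, 61.4, 51.8 and 49.2 CPM in knockout libraries. Again knockout replicate 2 was the highest knockout library and lay among the controls. Of its 75-base stretches, 16.9% also occur in Bnip3l-ps. Its log2 fold change was -0.14 (SE 0.08, 95% interval -0.31 to 0.04, adjusted p 0.16 by edgeR), turning to 0.53 with library totals alone. The log2 ratio of Bnip3 to Bnip3l was 1.67 ± 0.053 in control and 1.28 ± 0.28 in knockout, a difference of -0.40 with an exact permutation p of 0.0857 (adjusted 0.114). Without knockout replicate 2 this difference was -0.52, with an unadjusted p of 0.0286 by the exact permutation test. That is the smallest p that this number of libraries allows.

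In the list of mitophagy receptors, 3 of 8 genes were lower and 1 was higher, beside 21.1% and 23.6% of all genes. Fundc1, a receptor of the outer membrane that responds to low oxygen, was lower at -0.86 (SE 0.10, adjusted p 3.7e-05 by edgeR), with 30.9 to 39.6 CPM in control and 17.7 to 21.8 CPM in knockout libraries. Nipsnap2, listed under its older symbol Gbas, was at -0.72 (adjusted p 1.3e-04 by edgeR), and Bcl2l13, a receptor related to BCL2, at -0.39 (adjusted p 0.0010 by edgeR). With library totals alone these values were -0.19, -0.050 and 0.28, so that the first and second lost their calls (adjusted p 0.090 and 0.54 by edgeR) and the last turned. Phb2, which encodes a prohibitin of the inner membrane, was higher at 0.55 (SE 0.08, adjusted p 2.0e-04 by edgeR).

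Pink1 (chr4:138313409-138326296, minus) was lower in knockout muscle. It stood at 698, 844, 876 and 792 CPM in control and at 498, 416, 577 and 482 CPM in knockout libraries. All knockout libraries lay below all control libraries. Of its 75-base stretches, 1.36% also occur in transcripts of other annotated genes. The log2 fold change was -0.70 (SE 0.11, 95% interval -0.96 to -0.45) with an adjusted p of 4.5e-04 by edgeR. With library totals alone it was -0.040 with an adjusted p of 0.71, which lost the call, and relative to the median of all genes in that scaling it was -0.77.

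Of the 7 genes listed for the PINK1 pathway, 2 were higher and 2 were lower, beside 23.6% and 21.1% of all genes. Tbk1, the kinase that phosphorylates p62 and other receptors, was higher by 0.40 (adjusted p 0.0011 by edgeR). Besides Pink1, Usp15, a deubiquitinase that counters mitophagy, was at -0.27 (SE 0.07, adjusted p 0.0093 by edgeR) and turned to 0.40 with library totals alone.

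**Figure D4:**
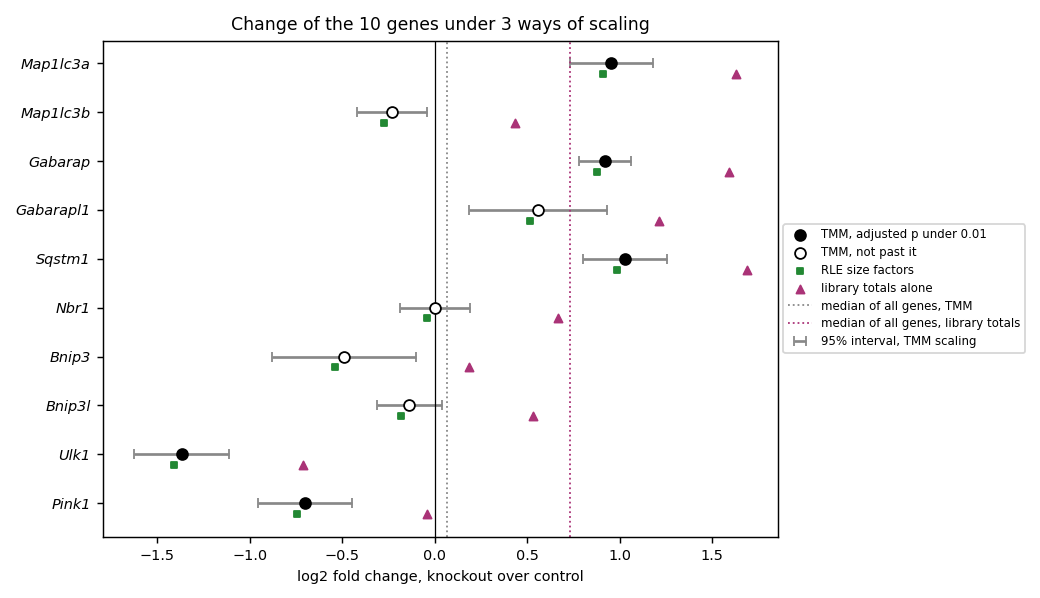
Log2 fold change (knockout over control) of the 10 genes with TMM scaling (circles with 95% intervals, filled where the adjusted p is under 0.01), RLE size factors (squares) and library totals alone (triangles), with dotted lines at the median of all genes. Library totals move every gene to the right by a similar amount, so that Map1lc3b, Bnip3 and Bnip3l turn from below to above 0 and Pink1 comes to -0.040.

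The other steps of the pathway were described with lists of genes by role. Over all 75 listed genes, the 10 included, 15 were higher, 20 were lower and 40 were not called, with a median log2 fold change of -0.026. Leaving out the 10 genes, 12 of 65 were higher, or 18.5%, and 18 were lower, or 27.7%, beside 23.6% and 21.1% of all genes. Library totals alone moved all genes up by a similar amount, and 12 of the 20 lower genes, those with the smaller falls, then stood above 0.

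Of the 10 genes of autophagosome and lysosome fusion, 5 were lower (Rab7, Snap29, Vps41, Stx17 and Ykt6) and 1 was higher. Of all genes, 21.1% were lower and 23.6% higher. Rab7, the small GTPase of late endosomes that autophagosomes need to fuse with lysosomes, had the largest fall, from 367, 296, 337 and 296 CPM in control to 163, 165, 166 and 155 CPM in knockout libraries. Its log2 fold change was -1.0 (SE 0.08, adjusted p 6.3e-06 by edgeR), and -0.32 with library totals alone, where the other 4 turned above 0. Epg5, a tether for fusion, was higher at 0.49 (SE 0.07, adjusted p 1.3e-04 by edgeR).

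In the group of ATG9, WIPI and lipid transfer genes, 2 of 7 were higher and 1 was lower, beside 23.6% and 21.1% of all genes. Atg9a, the scramblase whose vesicles seed the membrane, was lower at -1.04 (SE 0.10, adjusted p 1.1e-05 by edgeR), with 206 to 255 CPM in control and 98.5 to 127 CPM in knockout libraries. The higher genes Wdr45 and Wdr45b, which encode WIPI4 and WIPI3, were at 0.44 and 0.43.

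Of the 10 conjugation enzymes, which join Atg8 proteins to lipid, 3 were lower (Atg4d, Atg4c and Atg12) and 1 was higher. Among all genes 21.1% were lower and 23.6% higher. Atg4d, one of the proteases that cut the Atg8 ends printed above, was at -0.58 (SE 0.09, adjusted p 3.9e-04 by edgeR). These 3 genes turned above 0 with library totals alone (0.09, 0.11 and 0.26). Atg7, the activating enzyme of the conjugation, was higher at 0.47 (SE 0.07, adjusted p 3.6e-04 by edgeR).

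Of the 8 genes of the PI3K complex, 1 passed, Nrbf2, a subunit that acts with ATG14, at 0.67 (SE 0.14, adjusted p 0.0027 by edgeR). Of all genes, 44.7% passed. In the TFEB family of 3 transcription factors for autophagy and lysosome genes, Tfeb was lower and Tfe3 higher. Tfeb stood at 82.3, 73.1, 85.2 and 83.1 CPM in control and at 35.2, 35.7, 35.8 and 30.4 CPM in knockout libraries, a log2 fold change of -1.24 (SE 0.08, adjusted p 1.1e-06 by edgeR). Tfe3 was at 0.48 (SE 0.10, adjusted p 0.0018 by edgeR) from a lower level of 12.5 CPM in control.

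**Figure D5:**
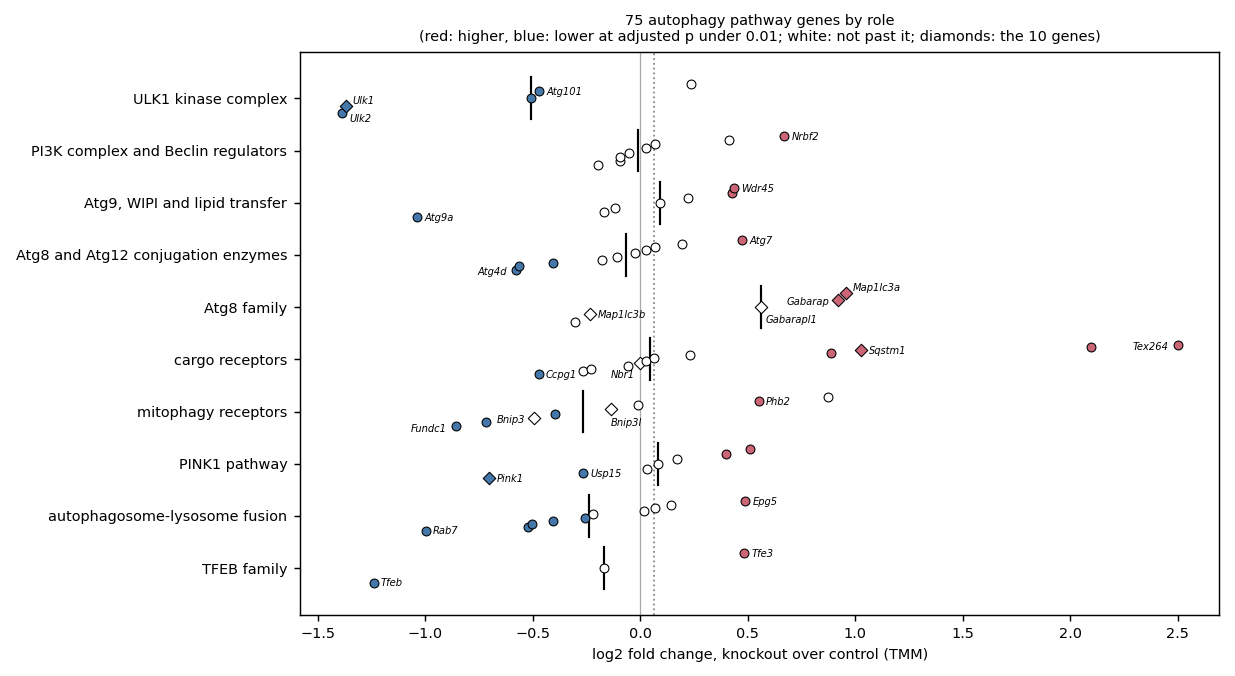
Log2 fold change (knockout over control, TMM) of 75 autophagy genes by role, with red for higher, blue for lower and white for not called at an adjusted p of 0.01, diamonds for the 10 genes, a bar at each role's median and a dotted line at the median of all genes. The ULK1 kinase complex and the fusion genes lie mostly below 0, with medians of -0.51 and -0.24, although 2 of 4 and 4 of 5 of their lower genes turn above 0 with library totals alone, and Tex264 lies farthest to the right at 2.5.

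The order of the 10 genes by level per exon length was compared between the groups as TMM-scaled RPKM. In control muscle Pink1 (339 ± 32.7 RPKM) and Sqstm1 (328 ± 23.4) stood highest and overlapped, ahead of Map1lc3a (187 ± 22.9) and Bnip3 (109.9 ± 3.23). Gabarap (88 ± 1.29) and Map1lc3b (86.2 ± 5.87) overlapped, and so did Nbr1 (24.9 ± 1.43) and Ulk1 (23.8 ± 1.06), with Gabarapl1 (33.5 ± 4.69) between these pairs and Bnip3l (18.7 ± 0.505) lowest. In knockout muscle Sqstm1 (668 ± 73.0) and Map1lc3a (362 ± 25.7) led without overlap. Pink1 (208 ± 27.9) overlapped Gabarap (167 ± 8.51), and Bnip3 (78.2 ± 23.5) overlapped Map1lc3b (73.5 ± 6.94). Below them came Gabarapl1 (49.5 ± 11.2), Nbr1 (24.9 ± 2.58), Bnip3l (17 ± 1.72) and Ulk1 (9.22 ± 1.62), which was lowest. The errors are SDs over 4 libraries.

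Knockout replicates 2 and 3 lay at the ends of the knockout range for most of the 10 genes. Replicate 2 was the lowest knockout library for Sqstm1, Gabarapl1, Nbr1, Ulk1 and Pink1, and the highest for Gabarap, Bnip3 and Bnip3l. Replicate 3 was the highest for Map1lc3a, Gabarapl1, Sqstm1, Nbr1, Ulk1 and Pink1 and the lowest for Bnip3, and it had the highest sum of skeletal muscle markers (94798 CPM) and the lowest of adipocyte markers (373 CPM) of the knockout libraries. Replicate 2 had the highest summed level of 8 macrophage markers (226 CPM, beside 125 to 198 in the other knockout and 54.7 to 140.2 in the control libraries) and the lowest of 4 red blood cell markers (7.92 CPM, beside 53.2 to 91.7 in the other knockout and 38.1 to 96.8 in the control libraries). Of the macrophage markers 1 of 8, Cd68, was higher in knockout. All 5 endothelial markers were lower, with sums of 245 to 359.99 CPM in control and 175 to 198 CPM in knockout, as were 3 of 5 fibroblast markers, with sums of 1292 to 1819 CPM and 529 to 774 CPM. Sums of 6 adipocyte markers ran from 30.6 to 889.9 CPM in control and from 373 to 1591 CPM in knockout, with none called. The 2 satellite cell markers summed to 3.07 to 4.87 CPM in control and 6.13 to 7.75 CPM in knockout, without overlap, and 1 of them, Myf5, was higher (adjusted p 2.6e-04 by edgeR). The 3 Schwann cell markers summed to 24.7 to 83.7 CPM and 37.7 to 62.9 CPM, with none called. Of 8 skeletal muscle markers, 7 were lower and Myh1 was higher, and no marker of any list was at 0 over all libraries. Marker calls stand beside 23.6% of all genes higher and 21.1% lower. All marker calls and sums are with TMM scaling and were not examined with library totals alone, which moved all genes up. The part of these cell types in the values of the 10 genes was not tested.

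The genes whose pattern over the 8 libraries was most like that of Sqstm1, Pink1, Bnip3 or Gabarapl1 were found by the root mean square difference of centred log2 CPM. For Sqstm1 they were Pip4k2c (0.031), Tmem222 (0.060) and Cnpy3 (0.072), beside a median of 0.58 over all genes, and Gabarap came at rank 194 and Map1lc3a at rank 417 of 14011. For Pink1 they included Pik3ca (0.065) and Nipsnap2 (0.074), beside a median of 0.50. For Bnip3 they were Zfp74 (0.12), Gypc (0.12) and Bpnt1 (0.13), and for Gabarapl1 they were Cda (0.085, with a level of 0.427 CPM in control and 0.687 CPM in knockout), Tbx2 (0.11) and Bend7 (0.11), with medians of 0.49 over all genes for each. These distances are descriptions over 8 shared libraries.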

How the data were processed

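Analysed were 8 RNA libraries of QF, 4 for each label. The authors made the deposited raw counts (read pairs for each gene) by demultiplexing with bcl2fastq 2.20.0.422, trimming with cutadapt, alignment with STAR 2.5.4b to GRCm38 and exon counting with Rsubread, after removal of duplicate, chimeric, multimapping and poorly mapped reads and of genes with few reads. The annotation release and the use of strand in counting are not given in the sources used here, so reads of Gabarapl1 and of 1700101I11Rik on the opposite strand may not be told apart (11879 and 81 counts in all). Deposited FPKM values, derived by the authors from those counts, were not used. From DESeq2 1.32.0 the authors also deposited log2 fold changes, a score (the Wald statistic), p-values and each gene's mean signal, and none of these was used. The deposited exon widths were used for RPKM.

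All 14012 genes were tested with edgeR 4.0.16 in R 4.3.3 (glmQLFit and glmQLFTest, TMM scaling, the label as only term, Benjamini-Hochberg adjustment, adjusted p under 0.01), with no further filter. The script was run on simulated data in which few genes differed, which cannot check calls where many genes differ, as here. SEs are the log2 fold change over the root of the F statistic. CPM and RPKM used TMM-scaled library sizes, and ratios used log2 CPM with a prior count of 2. In these libraries 3 counts, the limit that a count of 0 allows, equal 0.119 to 0.242 CPM, which covers counting error only. Ratios were compared by two-sided exact permutation over the 70 assignments. Identity was computed from aligned coding sequences. The 10 genes and all lists were chosen with earlier results of these data known. All 10 genes are named, along with the called gene of largest and of smallest change in each role, the 3 most alike genes for Gabarapl1, Sqstm1, Bnip3 and Pink1, and, chosen after their values were seen, other called genes where a role had 5 or fewer. Alternatives were RLE, upper-quartile and no scaling factors, filterByExpr, DESeq2 1.42.0, a replicate block and leaving out each library. A few items that this rule names are not reported here.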

Additional observations from a re-analysis of the deposited data

Results flagged for a closer look

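Gabarap in control replicate 4 stood apart from the other control libraries, at 96.6 CPM beside 99.3 to 99.6 CPM, by Dixon's ratio for 4 values at its 95% critical value. It was 1 of 28 groups of 4 examined, and chance exceeds this value in about 1 of 20 groups. The distance was small beside the knockout libraries, at 176 to 199 CPM.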

How the results depend on the processing

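Library totals alone gave 8498 genes higher and 873 lower (90.7% of calls higher, beside 52.7% with TMM), 58 pathway genes higher and 5 lower, and 7 of the 10 genes higher and 1 lower. The log2 fold change was then 0.44 for Map1lc3b, 1.21 for Gabarapl1, 0.67 for Nbr1, 0.19 for Bnip3, 0.53 for Bnip3l and -0.040 for Pink1, and the shift of the median of all genes to 0.73 accompanied these. With DESeq2, 4 of the 10 genes were lower, and Map1lc3b (-0.28), Gabarapl1 (0.52) and Bnip3 (-0.54) passed. The value of Nbr1 turned with RLE size factors (-0.042), DESeq2 (-0.042) and the replicate block (-0.0024), and ran from -0.093 to 0.047 with 1 library left out. Leaving out 1 library gave ranges of 0.43 to 0.69 for Gabarapl1 and -0.72 to -0.42 for Bnip3, each passing only without knockout replicate 2. For the log2 ratio of Bnip3 to Bnip3l the range was -0.52 to -0.31. Its lowest exact permutation p, 0.0286 without knockout replicate 2, was not adjusted over the ratios. It is the smallest that this number of libraries allows. The ratio of Map1lc3b to Map1lc3a was -1.20 as a difference of medians (exact permutation p = 0.0571) and -1.19 within replicate numbers, and that of Sqstm1 to Nbr1 was 1.06 and 1.03. Within replicate numbers the exact permutation p was 0.125 for both, the smallest 4 pairs allow. The replicate block changed no other call among the 10 genes and gave 6123 calls, and same-numbered libraries, each from its own mouse, had correlations of their deviations from the group means from 0.0031 to 0.42, so that the numbers were not taken to pair them. Of the libraries, 6 of 8 correlated best with the one of their own number, a hint from the data and not from the design. The calls of Map1lc3a (0.88 to 1.01), Gabarap (0.88 to 0.93), Sqstm1 (0.94 to 1.08), Ulk1 (-1.52 to -1.29) and Pink1 (-0.82 to -0.64) kept their direction and passed with any 1 library left out. With 4 libraries a group, the exact test cannot go below p = 0.0286.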
